A study of Homo sapiens with 16 samples.

Results

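Of the 28207 human genes counted in U2OS, a human osteosarcoma cell line, 8 early response genes of growth-factor and calcium signalling were followed: EGR1, KLF6, NFATC2, IER2, IER3, DUSP1, NFKBIA and GEM. They were taken by symbol from a list selected on their levels across these same groups, known from earlier results. Their levels and differences are therefore a description, and passing a threshold is no independent support for any direction. Total RNA was sequenced in 16 libraries. The genotype label of each library joins a name, zdna1, zdna2, zdna3 or zdna4, to an arm, CL or CC, giving the 8 groups zdna1_CL, zdna1_CC, zdna2_CL, zdna2_CC, zdna3_CL, zdna3_CC, zdna4_CL and zdna4_CC with 2 replicates each. The meaning of the names and of the arms, and whether a name is 1 clone or a pool of cells, are not given in the sources used here. The series title names MYC, FACT (a histone chaperone) and Z-DNA, and the design implies 2 kinds of comparison: between the arms within a name, and between the names.

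Early response genes are switched on within minutes of a stimulus without new protein synthesis, because the factors that drive them are already present in the cell. Growth factors act through MAP kinases on serum response factor and its partners at CArG boxes, calcium and cyclic AMP act on CREB at cyclic AMP response elements (CRE) and on NFAT through the phosphatase calcineurin, and cytokines act through NF-kB. Several of the induced proteins then shut the signal off, and many of the transcripts are short-lived. Of the 8 genes, EGR1 encodes a zinc finger transcription factor and the best-known serum target, KLF6 a Krüppel-like zinc finger factor, and NFATC2 a calcium-regulated transcription factor. IER2 encodes a nuclear regulator, and IER3 a regulator of cell survival. DUSP1 encodes a phosphatase that inactivates MAP kinases, NFKBIA the inhibitor that holds NF-kB in the cytoplasm, and GEM a small GTPase of the RGK family that binds calcium channel beta subunits.

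The promoters of EGR1, DUSP1 and NFKBIA carry control elements for which this gene class is known, and they are printed to show those elements beside the genes whose levels follow. RefSeq (GRCh38.p14) windows were matched for 6 of the 8 genes. Each sequence is the 250 bases before the annotated start, 5′ to 3′ on the gene's own strand. Capitals mark the CArG boxes in EGR1 (chr5:138465229-138465478, plus strand), the full CRE, TGACGTCA, in DUSP1 (chr5:172771196-172771445, minus strand), and the NF-kB consensus in NFKBIA (chr14:35404750-35404999, minus strand).
EGR1: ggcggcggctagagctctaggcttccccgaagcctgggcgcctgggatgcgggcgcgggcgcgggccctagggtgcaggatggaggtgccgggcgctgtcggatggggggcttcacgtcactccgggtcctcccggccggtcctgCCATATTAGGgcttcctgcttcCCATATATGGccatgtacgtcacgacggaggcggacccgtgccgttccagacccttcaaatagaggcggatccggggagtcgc
DUSP1: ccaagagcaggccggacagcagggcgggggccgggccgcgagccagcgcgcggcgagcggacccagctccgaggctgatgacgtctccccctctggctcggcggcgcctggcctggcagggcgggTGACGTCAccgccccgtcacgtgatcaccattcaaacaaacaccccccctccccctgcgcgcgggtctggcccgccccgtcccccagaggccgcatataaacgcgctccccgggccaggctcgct
NFKBIA: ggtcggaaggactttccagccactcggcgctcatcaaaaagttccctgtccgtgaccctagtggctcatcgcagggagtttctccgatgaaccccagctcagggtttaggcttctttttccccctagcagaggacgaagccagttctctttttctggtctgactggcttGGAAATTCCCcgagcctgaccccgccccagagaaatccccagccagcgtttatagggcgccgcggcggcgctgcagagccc

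The 2 CArG boxes of EGR1 began 105 and 83 bases before the start, the CRE of DUSP1 125 bases before it, and the NF-kB match of NFKBIA 81 bases before it. Both strands were searched in all 35116 windows of the same length. A CArG box was in 1.16% of them, a full CRE in 1.65% and the NF-kB consensus in 9.96%. The shorter CRE core (TGACG, part of every full CRE) was in 21.2% of windows, and the windows of EGR1, DUSP1 and IER2 and 1 of the 2 start sites of NFATC2 held it. The NFAT core GGAAAA, also in 21.2% of windows, was found in the window of NFKBIA. The EGR site GCGNGGGCG, where N was T or G, was in 5.37% of windows and was found for KLF6 and at the other start site of NFATC2. The TATA motif TATAAA, in 10.7% of windows, was found for DUSP1, NFKBIA and NFATC2. These matches describe letters in a window and say nothing of binding in these cells.

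Depth was low. Reads assigned to human genes numbered 39335 to 310187 per library, so 1 read was worth 3.22 to 25.4 CPM, the unit in which every library is scaled to the same total of human-gene reads, and no early response gene had more than 33 reads in a library. Libraries of zdna3 had 42494 to 83269 reads, and those of zdna4_CC were the shallowest. Both zdna4_CC libraries stood apart: reads over 401 olfactory receptor genes, a measure of reads outside expressed genes, summed to 1449 and 1492 CPM there and to 55.3 to 396 CPM in the other 14. Each name also has 1 extra reference sequence of its own. Its reads per human-gene read numbered 6.95 to 7.10 in zdna3_CC, 0.262 to 0.275 in zdna3_CL and 0.00327 to 1.80 in the other 12 libraries. In this measure the zdna3_CL libraries lay below those of zdna2 and zdna1_CC and above those of zdna1_CL and zdna4. The part of depth and of that sequence in the differences of zdna3 was not tested. Markers of osteosarcoma and mesenchymal cells were all detected (6 of 6, summing to 3014 to 4177 CPM in zdna3 and 2402 to 4032 CPM elsewhere), while HBB was at 0 in every library and blood, epithelial and endothelial markers summed to at most 135 CPM. The 3 neuronal markers summed to 47.6 to 170 CPM in zdna3 and 28.6 to 205 CPM elsewhere, with reads of the tubulin gene TUBB3 in all 16 libraries.

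All 8 genes were among the 4632 that passed the filter on low values, a mean over all libraries of 50 CPM or more. GEM and NFATC2 passed it through zdna3, since their means over the other 12 libraries were 29.9 and 20.8 CPM. Levels below are CPM scaled by TMM. Averaged over the libraries and divided by exon length, they were highest for IER3 (63.4 CPM per kilobase), NFKBIA (60.4) and DUSP1 (60.2), and lower for EGR1 (43.9), IER2 (34.5), GEM (24.9), KLF6 (21.1) and NFATC2 (8.52). In bulk RNA, fewer cells expressing a gene and less of its RNA per cell cannot be told apart.

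**Figure D1:**
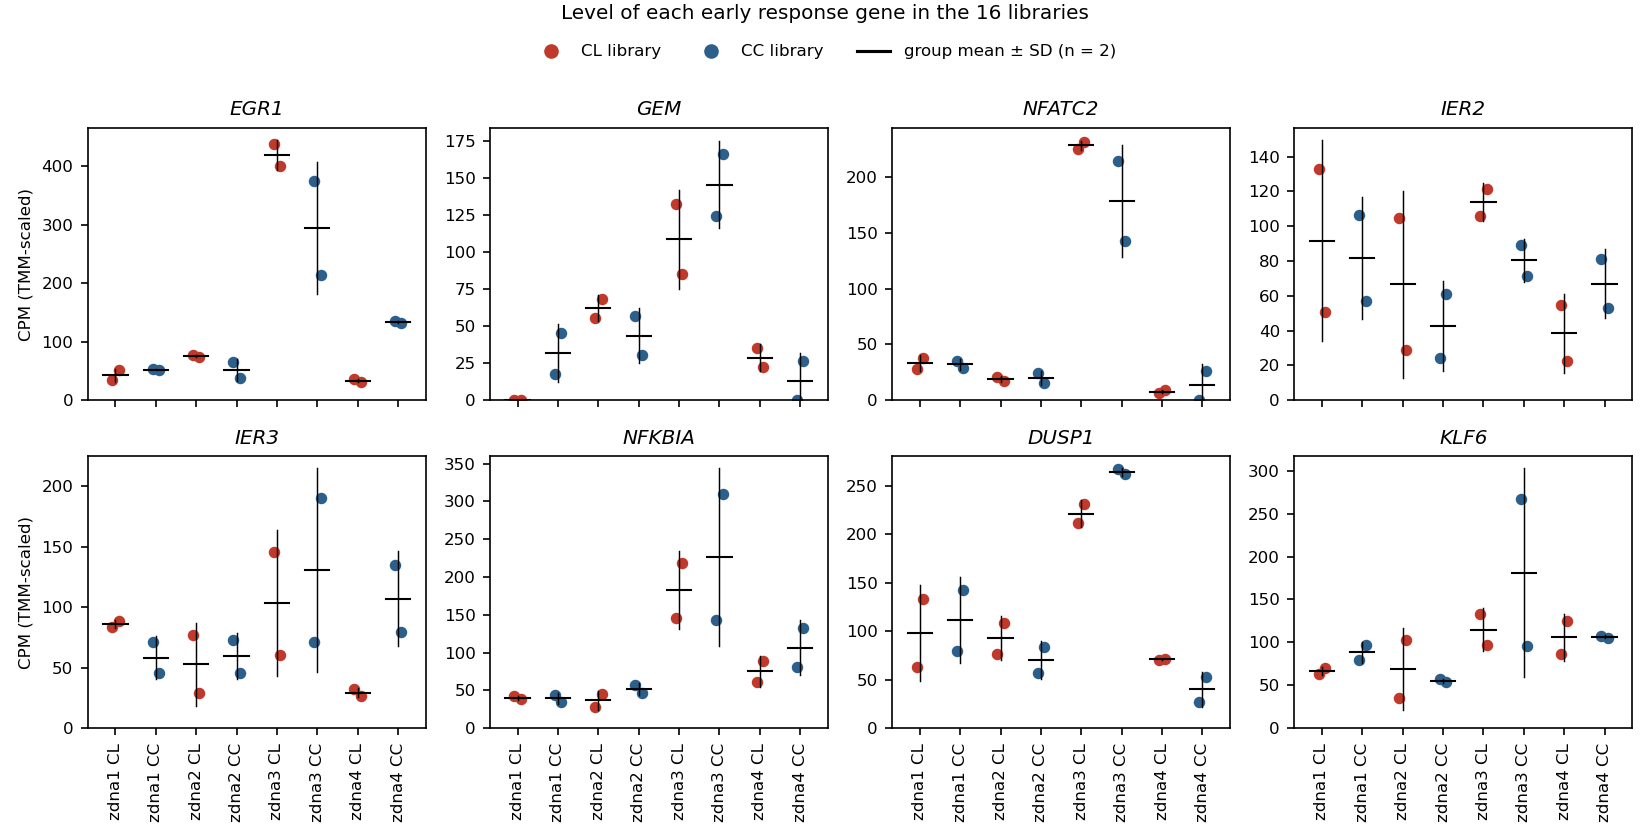
Level of each early response gene (vertical axes, TMM-scaled CPM) in the 16 libraries, with CL libraries in red, CC libraries in blue and the group mean ± SD as bars (n = 2). For EGR1, GEM, NFATC2, NFKBIA and DUSP1 the 4 zdna3 libraries lie above all 12 others, as with 214 to 438 CPM for EGR1 against at most 135 CPM elsewhere.

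EGR1 (hg19 chr5:137801168-137804992, plus strand), whose promoter holds the pair of CArG boxes, was highest in zdna3. Its level there was 438 and 401 CPM in the CL libraries and 374 and 214 CPM in the CC libraries, from 66 and 30 reads in all. The exact Poisson 95% interval of the pooled level, which like every interval here covers counting error only, was 324 to 533 CPM in zdna3_CL and 206 to 437 CPM in zdna3_CC. The zdna4 libraries split by arm, with 35.2 and 31.3 CPM in CL and 135 and 132 CPM in CC. Levels in zdna2 were 76.8 and 74.4 CPM in CL and 64.9 and 38.2 CPM in CC, and those in zdna1 were 34.9 and 50.7 CPM in CL and 53.2 and 51.3 CPM in CC. By name the order of the means was zdna3 (357 ± 98.5 CPM), zdna4 (83.4 ± 57.9), zdna2 (63.6 ± 17.7) and zdna1 (47.5 ± 8.48; SD, n = 4 each). The lowest zdna3 library lay above every other library, and neighbours among zdna4, zdna2 and zdna1 overlapped.

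NFATC2 (chr20:50003500-50179378, minus strand), the factor that calcineurin sends to the nucleus, showed the widest gap between zdna3 and the rest. It was at 225 and 231 CPM in zdna3_CL and at 214 and 143 CPM in zdna3_CC, from 54 reads. The other 12 libraries held 35 reads together and ran from 0 to 38.0 CPM with a median of 22.6 CPM. Means were 203 ± 40.9 CPM in zdna3, 32.5 ± 5.03 in zdna1, 19.4 ± 4.03 in zdna2 and 10.4 ± 11.3 in zdna4 (SD, n = 4 each). The zdna2 libraries, at 15.3 to 24.3 CPM from 11 reads, lay below the zdna1 libraries, at 27.9 to 38.0 CPM from 19 reads, and zdna4 overlapped zdna2. How many tested genes separated zdna2 from zdna1 in this way was not counted.

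KLF6 (chr10:3818188-3827473, minus strand) differed less. It was at 133 and 97.3 CPM in zdna3_CL and at 267 and 95.3 CPM in zdna3_CC, against 34.9 to 125 CPM in the other 12 libraries. A single zdna3_CC library stood high, and the lower library of each zdna3 arm lay within the range of the other names. Means were 148 ± 81.4 CPM in zdna3, 106 ± 15.8 in zdna4, 77.3 ± 14.8 in zdna1 and 62.1 ± 29.0 in zdna2 (SD, n = 4 each), with overlap between each of these neighbours.

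DUSP1 (chr5:172195100-172198198, minus strand), the MAP kinase phosphatase with the full CRE, varied little within zdna3. It was at 212 and 231 CPM in zdna3_CL and at 267 and 262 CPM in zdna3_CC. In zdna1 its replicates lay far apart, at 62.8 and 133 CPM in CL and 79.8 and 143 CPM in CC. Levels in zdna2 were 76.8 and 109 CPM in CL and 56.8 and 84.0 CPM in CC, and those in zdna4 were 70.4 and 71.4 CPM in CL and 27.0 and 52.8 CPM in CC. By name the means were 243 ± 26.1 CPM in zdna3, 105 ± 39.2 in zdna1, 81.6 ± 21.5 in zdna2 and 55.4 ± 20.8 in zdna4 (SD, n = 4 each). Only zdna3 stood clear of the other names in its range.

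NFKBIA (chr14:35870716-35873960, minus strand), the inhibitor of NF-kB, was at 146 and 219 CPM in zdna3_CL and at 143 and 309.6 CPM in zdna3_CC. The zdna4 libraries came next, with 60.8 and 89.3 CPM in CL and 81.0 and 132 CPM in CC. Levels ran from 27.9 to 56.8 CPM in zdna2 and from 34.2 to 44.3 CPM in zdna1. All 4 zdna4 libraries thus lay above all 8 libraries of zdna1 and zdna2, though the zdna4_CC levels rest on 3 and 5 reads. The share of tested genes with such a separation was not counted. The means were 204 ± 78.6 CPM in zdna3, 90.8 ± 30.0 in zdna4, 44.1 ± 11.95 in zdna2 and 39.6 ± 4.44 in zdna1 (SD, n = 4 each). The pair zdna2 and zdna1 overlapped.

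GEM (chr8:95261485-95274547, minus strand), the RGK GTPase, was at 133 and 85.2 CPM in zdna3_CL and at 125 and 167 CPM in zdna3_CC. In zdna2 it was at 55.8 and 68.7 CPM in CL and 56.8 and 30.6 CPM in CC, and in zdna4 at 35.2 and 22.3 CPM in CL and 0 and 26.4 CPM in CC. It had no read in either zdna1_CL library, against 2 and 8 reads (17.7 and 45.6 CPM) in zdna1_CC. Means were 127 ± 33.5 CPM in zdna3, 53.0 ± 16.05 in zdna2, 21.0 ± 14.99 in zdna4 and 15.8 ± 21.5 in zdna1 (SD, n = 4 each). Each zdna3 library was above all others, while the ranges of zdna2, zdna4 and zdna1 overlapped. None of the 7 other RGK and calcium channel beta subunit genes listed reached the filter.

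IER2 (chr19:13261225-13265725, plus strand) and IER3 (chr6:30710976-30712324, minus strand) overlapped between all names. IER2 was at 71.4 to 122 CPM in zdna3 and 22.3 to 133 CPM in the other 12 libraries, with means of 97.1 ± 21.6 CPM in zdna3, 86.7 ± 39.5 in zdna1, 54.7 ± 37.2 in zdna2 and 52.6 ± 24.0 in zdna4 (SD, n = 4 each). IER3 was at 60.8 to 191 CPM in zdna3 and 26.8 to 135 CPM elsewhere, with means of 117 ± 61.8 CPM in zdna3, 72.3 ± 19.3 in zdna1, 68.2 ± 50.3 in zdna4 and 56.1 ± 22.9 in zdna2 (SD, n = 4 each). The zdna3_CC replicates of IER3 alone, at 71.3 and 191 CPM, lay farther apart than any 2 of its means.

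Counted over the 8 genes, 5 had all 4 zdna3 libraries above all 12 others, which 2.18% of the 4632 tested genes did, and 0 had them all below, as 1.04% of the tested genes did. Because the genes were chosen with such results known, nothing is read from that count.

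The names were compared with limma on log2(CPM + 10), in 1 fit of all 16 libraries with both arms averaged, and p-values were adjusted over all tested genes by the Benjamini-Hochberg method. Differences are on that scale, which understates the change of low genes. Pairs of names share libraries, so their values are given side by side. The deposited values themselves, before scaling by CPM, were kept as a second scale: on it the median log2 difference of all tested genes was -1.496 in zdna3 over zdna1, -1.37 in zdna3 over zdna2 and 1.40 in zdna4 over zdna3.

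Set against zdna1, 5 of the 8 genes passed the threshold as higher in zdna3, beside 2.22% of all tested genes. The log2 difference was 2.64 for EGR1 (SE 0.33), 2.76 for GEM (SE 0.52), 2.31 for NFATC2 (SE 0.50), 2.05 for NFKBIA (SE 0.37) and 1.21 for DUSP1 (SE 0.33). On the deposited scale EGR1 (1.11) and GEM (1.54) still passed as higher, NFATC2 (0.85) and NFKBIA (0.56) kept their direction without passing, and DUSP1 turned to -0.34. The genes that did not pass were KLF6 at 0.75, IER3 at 0.53 and IER2 at 0.22, which on the deposited scale turned to -0.73, -0.91 and -1.20 and passed as lower. Over all tested genes 103 passed as higher and 105 as lower, while on the deposited scale 4 were higher, EGR1 and GEM among them, and 4413 lower. DESeq2 called EGR1, NFKBIA and DUSP1 and gave no adjusted p for GEM and NFATC2, and NFATC2 did not pass with a pseudocount of 2 CPM (2.56). The median over the 8 was 1.63, beside -0.05 over all tested genes. DUSP1 missed the threshold when any of 6 libraries was left out, with differences of 1.01 without zdna1_CC replicate 1, 0.95 without zdna1_CL replicate 1, 1.20 and 1.21 without zdna3_CC replicate 1 or 2, and 1.24 and 1.18 without zdna3_CL replicate 1 or 2. GEM's value rests on a mean that holds 2 libraries with no read, so its size depends on the added 10 CPM.

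Set against zdna2, 4 of the 8 passed as higher in zdna3, beside 2.81% of all tested genes. These were NFATC2 at 2.84 (SE 0.50), EGR1 at 2.31 (SE 0.33), NFKBIA at 1.95 (SE 0.37) and DUSP1 at 1.49 (SE 0.33), which were 1.51, 0.87, 0.56 and 0.06 on the deposited scale, where NFATC2 and EGR1 still passed. Over all tested genes 130 were called higher and 148 lower, against 8 and 4250 on the deposited scale. GEM at 1.13, KLF6 at 1.09, IER3 at 0.88 and IER2 at 0.88 did not pass, and on the deposited scale they turned to -0.23, -0.27, -0.44 and -0.42. The median over the 8 was 1.31, beside -0.04 over all tested genes. KLF6 passed when zdna2_CL replicate 2 was left out (1.43) or zdna3_CC replicate 2 was (1.44), and edgeR's quasi-likelihood test called both GEM and KLF6.

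Between zdna4 and zdna3, 4 of the 8 passed as lower in zdna4, beside 2.91% of all tested genes. They fell by 3.52 for NFATC2 (SE 0.60), 2.31 for GEM (SE 0.62), 2.17 for EGR1 (SE 0.40) and 2.01 for DUSP1 (SE 0.40), and by 2.21, 0.95, 0.69 and 0.52 on the deposited scale, where NFATC2 alone of these passed. NFKBIA (-1.07), IER2 (-0.84), IER3 (-0.79) and KLF6 (-0.33) did not pass and turned positive on the deposited scale, at 0.42, 0.51, 0.58 and 1.12, of which KLF6 passed as higher. Over all tested genes 85 were called higher and 135 lower, against 3811 and 5 on the deposited scale. NFKBIA passed as lower with edgeR and without array weights. The median over the 8 was -1.54, beside -0.01 over all tested genes. The value of GEM was -2.22 without zdna3_CC replicate 2, -2.17 without zdna3_CL replicate 1 and -1.83 without zdna4_CC replicate 1, and it passed in none of these. Contrasts of 1 arm were taken in the same fit, so libraries of the other arm still entered its estimate of spread. Among CL libraries alone the differences were -3.76 for NFATC2, -3.31 for EGR1, -1.61 for GEM and -1.52 for DUSP1, and GEM did not pass. Among CC libraries alone they were -3.28 for NFATC2, -1.03 for EGR1, -3.02 for GEM and -2.51 for DUSP1, and none passed with limma.

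**Figure D2:**
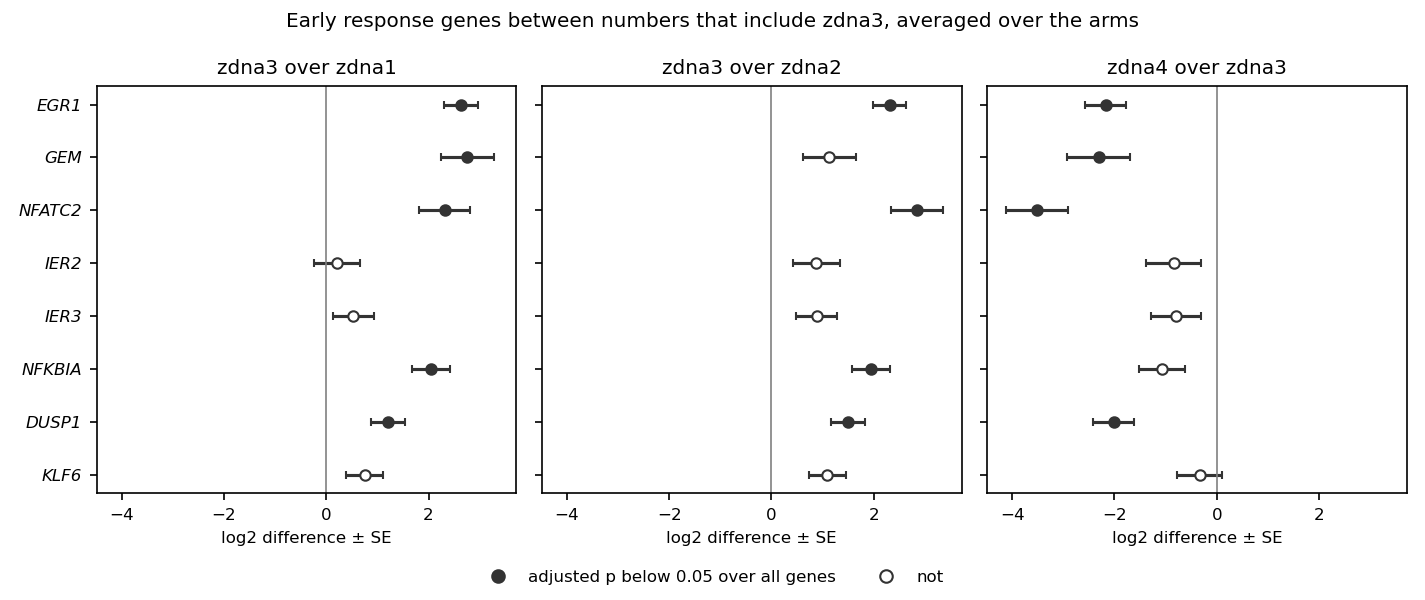
Log2 difference ± SE of each early response gene between names, both arms averaged, with filled points for an adjusted p below 0.05 over all tested genes. EGR1 lies at 2.64 and 2.31 in zdna3 over zdna1 and over zdna2 and at -2.17 in zdna4 over zdna3, while on the deposited scale DUSP1 turned to -0.34 over zdna1, and IER2, IER3 and KLF6 turned sign in all 3 panels, GEM in zdna3 over zdna2 and NFKBIA in zdna4 over zdna3.

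The differences of zdna3 were recomputed without the libraries that stood apart and, by contrasts in the fit of all libraries, within each arm. With both zdna4_CC libraries left out, zdna3 over zdna1 was 2.63 for EGR1, 2.76 for GEM, 2.30 for NFATC2, 2.03 for NFKBIA and 1.19 for DUSP1. Within CL libraries zdna3 over zdna1 was 3.04 for EGR1, 3.54 for GEM, 2.48 for NFATC2, 1.92 for NFKBIA and 1.18 for DUSP1. Within CC libraries the same differences were 2.24, 1.97, 2.14, 2.17 and 1.23. Direction was the same in each arm. EGR1 and NFKBIA passed in both arms, GEM and NFATC2 in CL alone and DUSP1 in neither. Within CL libraries zdna3 over zdna2 was 3.04 for NFATC2, 2.33 for EGR1, 2.04 for NFKBIA and 1.19 for DUSP1. Within CC libraries it was 2.65, 2.289, 1.85 and 1.79. EGR1 passed in both arms there, NFATC2 and NFKBIA in CL alone and DUSP1 in neither.

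Among the other pairs, GEM was higher in zdna2 than in zdna1, by 1.63 (SE 0.39; 1.77 on the deposited scale), as the only one of the 8 to pass beside 0.799% of all tested genes. It missed the threshold without zdna1_CC replicate 1 (1.38), without zdna2_CC replicate 1 (1.45) and without zdna2_CL replicate 2 (1.56), and the difference was 2.85 within CL and 0.41 within CC. Between zdna4 and zdna1 and between zdna4 and zdna2, 0 of the 8 passed with limma, beside 0.691% and 2.48% of all tested genes. With edgeR 0 of the 8 were called, beside 28 and 156 of all tested genes. In each pair 3 of the 8 had an unadjusted p below 0.05, and the share of all tested genes at that level was not counted. NFKBIA lay at 0.98 (SE 0.37) and 0.88 (SE 0.37) in these pairs. In the test of any difference among the 4 names, 5 of the 8 passed, beside 8.85% of all tested genes. There edgeR added KLF6, among the 490 of all tested genes that it called.

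The rest of the pathways was read from lists written from textbook knowledge with earlier results known. Of 42 other immediate early regulators 21 were tested, and 6 rose and 0 fell in zdna3 over zdna1, where 2.22% of all tested genes passed as higher and 2.27% as lower, with a list median of 0.34 beside -0.05 for all tested genes. FOS and FOSB, both among the 6, reached the filter through zdna3, since they averaged 27.2 and 22.9 CPM over the other 12 libraries, so their part in the count is a description. The 3 with the smallest p were ATF3, a stress-induced transcription factor, at 2.01 (SE 0.29, adjusted p = 1.75e-06, limma), JUN, a subunit of AP-1, at 1.78 (SE 0.27, adjusted p = 2.80e-06, limma), and FOS, its partner, at 2.97 (SE 0.47). On the deposited scale they were 0.44, 0.16 and 1.51, with FOS alone passing. All 4 zdna3 libraries lay above all 12 others for each of these, as 2.18% of all tested genes did. FOS was at 214 to 309.6 CPM in zdna3 against 0 to 67.2 CPM elsewhere. Because the 3 were picked by their p in this pair, the gap is a description and no added support. In zdna3 over zdna2, 7 of the 21 rose, beside 2.81% of all tested genes, among them FOS and FOSB, the second at 4.16 (SE 0.49), and 1 fell, beside 3.2%, the antiproliferative gene BTG2 at -1.18 (adjusted p = 0.0315, limma), chosen after its value was seen. In zdna4 over zdna3, 0 rose, beside 1.84% of all tested genes, and 7 fell, beside 2.91%, with a median of -0.95. JUN fell by 2.88 there, and its value was -1.91 without zdna4_CC replicate 1 and -3.82 without zdna4_CC replicate 2.

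Of 20 feedback inhibitors of growth-factor and MAP kinase signalling other than DUSP1, 9 were tested, and 0 rose and 1 fell in zdna3 over zdna1, beside 2.22% and 2.27% of all tested genes, with a median of -0.57. The gene that fell was ERRFI1, an inhibitor of the EGF receptor family, at -1.11 (SE 0.30, adjusted p = 0.0172, limma), and it missed the threshold without zdna1_CC replicate 2 (-1.06), zdna1_CL replicate 1 (-1.03), zdna3_CC replicate 1 (-0.90) or zdna3_CL replicate 1 (-0.65), and with DESeq2 (-1.02). In zdna3 over zdna2, 0 rose and 3 fell, beside 2.81% and 3.2% of all tested genes, with a median of -0.61 beside -0.04 for all tested genes. The 3 had few reads over the 4 zdna3 libraries: 29 for ERRFI1, 7 for RASA1 and 27 for CBL. ERRFI1 was at -1.18 (SE 0.30), and at -0.98 and -0.72 without zdna3_CC or zdna3_CL replicate 1, where it no longer passed. RASA1, a GTPase activator of Ras, was at -1.51 (adjusted p = 0.0364, limma), and it missed the threshold without replicate 1 of zdna2_CC, zdna2_CL, zdna3_CC or zdna3_CL (-1.27, -1.33, -1.12 and -0.96). RASA1 also did not pass with edgeR, with a pseudocount of 2 CPM, without array weights, without both zdna4_CC libraries or within CC libraries. CBL, a ubiquitin ligase for growth-factor receptors, was at -0.83 (adjusted p = 0.0469, limma), and it missed the threshold without any of the 8 libraries compared (-0.66 to -1.01). CBL also did not pass with edgeR, with DESeq2, with a pseudocount of 2 CPM or within either arm alone.

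Of 37 receptors, MAP kinases and serum response factor partners, 25 were tested. In zdna3 over zdna1, 0 rose and 1 fell, beside 2.22% and 2.27% of all tested genes, with a median of -0.02. In zdna3 over zdna2, 0 rose and 2 fell, beside 2.81% and 3.2% of all tested genes, with a median of 0.05. The gene that fell over zdna2 alone was VEGFA, a growth factor, at -1.11 (adjusted p = 0.0154, limma). It did not pass within CL or CC libraries alone. The gene that fell in both was SOS1, a Ras activator, at -1.44 (SE 0.37, adjusted p = 0.0115, limma) and -1.83 (SE 0.37, adjusted p = 7.60e-04, limma). It had only 8 reads over the 4 zdna3 libraries, with the lowest at 0 CPM. In zdna4 over zdna3, SOS1 was the only gene of the list to rise (1.90, but not passing within CC libraries), and 0 fell. There 1.84% of all tested genes passed as higher and 2.91% as lower. Over zdna2 it was at -0.88 within CC libraries, where it did not pass. Its value over zdna1 was -1.28 without zdna1_CC replicate 2 and -0.97 without zdna3_CL replicate 2, where it no longer passed, -1.74 with DESeq2, which did not call it, and -0.15 within CC libraries. Of the calcium, calcineurin and NFAT genes 22 of 34 were tested, and 0 rose and 0 fell in zdna3 over zdna1, where 4.49% of all tested genes passed with limma; the list's median there was 0.04. In zdna3 over zdna2, 0 of these 22 rose and 1 fell, beside 2.81% and 3.2% of all tested genes. It was NFAT5, the factor of osmotic stress, at -0.75 (SE 0.19, adjusted p = 0.0106, limma). Beside NFATC2, no other NFAT or calcineurin gene tested passed as higher in zdna3 in either pair. RCAN1 of this list, chosen after its values were seen, had all 4 zdna3 libraries above all 12 others without passing. It was at 106 to 191 CPM against 27.0 to 84.0 CPM, and 2.18% of all tested genes had such a gap.

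NF-kB subunits, inhibitors and targets other than NFKBIA numbered 32, of which 13 were tested. In zdna3 over zdna1, 2 rose and 0 fell, beside 2.22% and 2.27% of all tested genes, with a median of 0.40 beside -0.05 for all tested genes. They were TNFAIP3, a deubiquitinase that damps NF-kB signalling, at 1.69 (SE 0.40; 1.48 without zdna3_CC replicate 2, not passing) and SOD2, the mitochondrial superoxide dismutase, at 1.27 (SE 0.30, adjusted p = 0.00549, limma; 1.00 without zdna3_CC replicate 2 and 1.12 without zdna3_CL replicate 1, not passing), and on the deposited scale TNFAIP3 was at 0.21 and SOD2 turned to -0.28. TNFAIP3 averaged 46.0 CPM outside zdna3 and so reached the filter through zdna3. In zdna3 over zdna2, 3 rose, beside 2.81% of all tested genes, and 1 fell, beside 3.2%, the subunit gene REL at -1.67 (adjusted p = 0.0231, limma), which did not pass without replicate 2 of zdna2_CC, zdna2_CL, zdna3_CC or zdna3_CL (-1.33, -1.49, -1.31 and -1.17). REL had only 8 reads over the 4 zdna3 libraries. In zdna4 over zdna3, 0 rose and 3 fell, beside 1.84% and 2.91% of all tested genes, although the median of the list was 0.05. These were TNFAIP3 at -2.26 (SE 0.48), SOD2 at -1.39 and TNIP1, another inhibitor of NF-kB signalling, at -1.12, and on the deposited scale none of the 3 passed as lower, with TNFAIP3 at -0.87 and SOD2 and TNIP1 turned to 0.12 and 0.39.

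**Figure D3:**
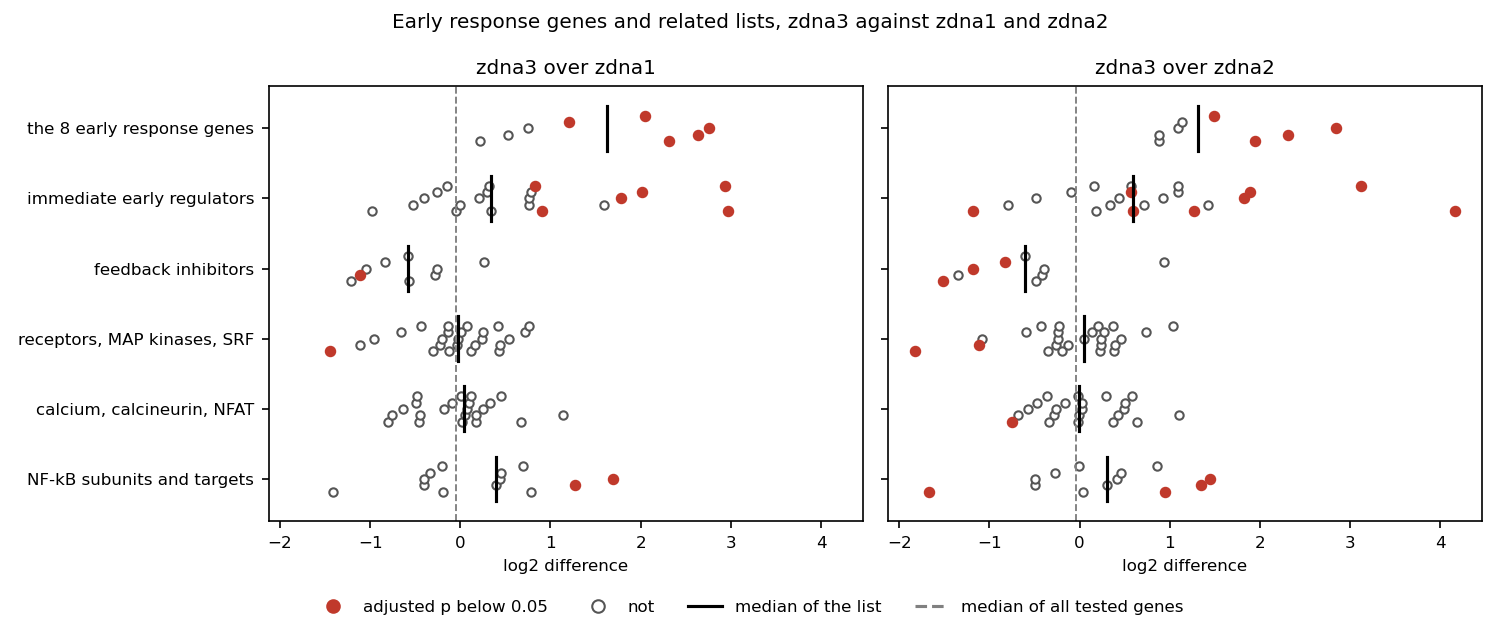
Log2 difference of each tested gene in zdna3 over zdna1 and zdna3 over zdna2, by list, with red points for an adjusted p below 0.05, a black bar for the list's median and a dashed line for the median of all tested genes. The 8 early response genes have medians of 1.63 and 1.31 and the feedback inhibitors -0.57 and -0.61, beside -0.05 and -0.04 over all tested genes on this TMM scale and -1.496 and -1.37 on the deposited scale.

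Within a name the arms were compared in the same fit. With limma 0 of the 8 passed for CL over CC in zdna1, zdna2, zdna3 or zdna4, beside 0.756%, 0.173%, 0.0864% and 1.17% of all tested genes, and 0 passed in the average over the names or in the test that the 4 differences are equal, beside 0.432% and 0.864%. At an unadjusted p below 0.05 there were 1, 0, 0 and 2 genes in the 4 names, 0 in the average and 2 in the test of equal differences. The share of all tested genes at that level was not counted, so nothing is read from these counts. With edgeR 1 of the 8 was called in zdna1, beside 46 of all tested genes. In the other comparisons of the arms it called 0 of the 8, beside 4 to 57 of all tested genes. The gene called in zdna1 was GEM, with 0 reads in zdna1_CL against 10 in zdna1_CC. Its level in zdna1_CC was 3.48-fold that of a floor of 3 reads over zdna1_CL. That value is no bound, since it leaves out the counting error of the 10 reads. The limma fit of all libraries did not call GEM. It passed with limma when zdna4_CC replicate 1 was left out, at -1.97. On the deposited scale EGR1 passed as higher in zdna3_CL than in zdna3_CC, at 1.30, where 1028 tested genes passed as higher and 0 as lower.

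In zdna4 the arms rest on few reads in CC. EGR1 had 18 reads in zdna4_CL and 10 in zdna4_CC, a ratio of 0.251 of CL to CC with an exact 95% interval of 0.110 to 0.610 for counting error. IER3 had 16 and 8 reads, a ratio of 0.279 (0.113 to 0.754), and DUSP1 38 and 3 reads, a ratio of 1.77 (0.561 to 8.96). EGR1 and IER3 were lower in both CL libraries than in both CC libraries, and neither difference (-1.73 and -1.53 on the log2 scale) passed with limma, although without array weights EGR1 did. NFATC2 had 4 reads in zdna4_CL and 1 in zdna4_CC, and KLF6 had 106 ± 27.3 CPM in CL and 107 ± 1.62 CPM in CC (SD, n = 2 each). For EGR1, IER3 and DUSP1 both CL libraries lay above both CC libraries in 1 name and below them in another, which 28.8% of all tested genes also did.

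**Figure D4:**
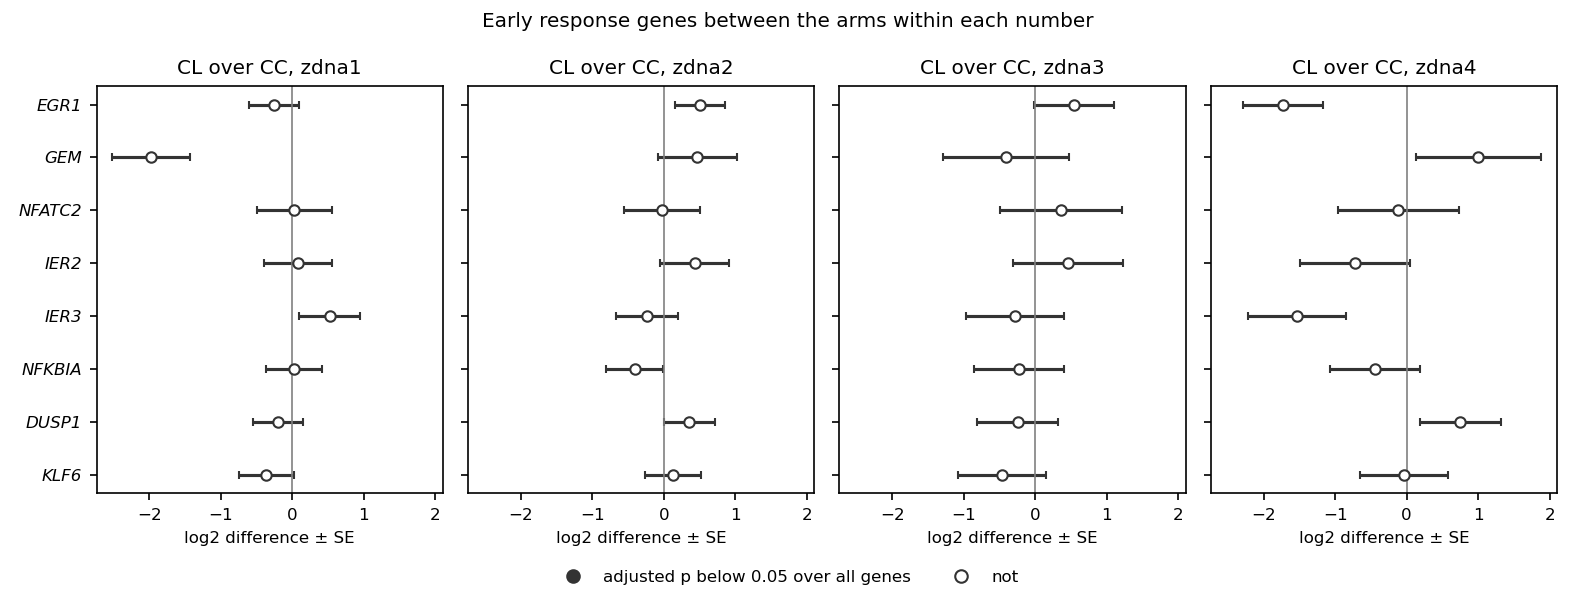
Log2 difference ± SE of CL over CC for each early response gene within each name, with open points because no adjusted p was below 0.05. GEM in zdna1 (-1.97) and EGR1 in zdna4 (-1.73) lie farthest from 0.

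Across the 8 group means of log2(CPM + 10), the early response genes differed in how alike their patterns were. Pearson's r was highest between NFATC2 and DUSP1 (0.94), NFKBIA and KLF6 (0.87) and EGR1 and NFKBIA (0.86), and lowest between GEM and IER3 (0.09) and GEM and IER2 (0.15). Among the 919 genes that averaged 200 CPM or more, the closest patterns to EGR1 were those of GPRC5A (0.98), CLPTM1L (0.95) and RANBP1 (0.93), to NFATC2 those of RPS19 (0.97), LAMB1 (0.97) and WDR82 (0.95), and to DUSP1 those of NFE2L1, RPS19 (each 0.95) and SQSTM1 (0.94). For GEM, RPS25 (0.95) and NACA (0.93) were among the closest. For NFKBIA they were RBM25 (0.94), H1-2 (0.93) and DDX23 (0.91), and for KLF6 TXNRD1 (0.97), DDX23 (0.86) and LARP1 (0.84). For IER2 they were HK1 (0.94), RPL13 (0.93) and RPS16 (0.87), and for IER3 MAP7D1 (0.96), GCN1 (0.92) and MPRIP (0.91). These correlations are over 8 points that share libraries, depth and scaling, and each named gene is the closest of many.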

How the data were processed

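Per the labels' protocols, RNA came from a Trizol extraction, and libraries were prepared with a kit from Abclonal. The submitters' processing notes list Trim Galore 0.6.6, STAR and bedtools 2.29.2, and the builds hg19 and dm6, per the labels. Per the file headers, the authors counted paired reads per gene with featureCounts 2.0.1 without a strand option, so antisense and overlapping genes cannot be told apart. The deposited values are a scaled signal, whole counts times 1 constant per library whose origin is not stated. Dividing by the step (0.115 to 0.802) returned whole reads, to a tolerance of 0.1 read, for 99.99% of values or more. Libraries held 39335 to 310187 human-gene reads.

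Reads were scaled to CPM with TMM factors from edgeR 4.0.16, computed over the 4632 genes that averaged 50 CPM or more, and log2(CPM + 10) was fitted by limma 3.58.1, with array weights per group, a mean-variance trend and Benjamini-Hochberg adjustment at 0.05; tests were two-sided. Alternatives included edgeR's quasi-likelihood test and DESeq2 1.42.0 on the recovered reads. Where leaving out a library left 1 in its group, that library kept its group's weight and was assumed to vary like the other groups. The members and lists were chosen with earlier results of these data known. Besides the 8 genes, up to 3 genes per list were named by smallest p, and the 3 closest in pattern to each member, of which 1 is not reported here. Whether replicates come from different cultures is not in the labels, so p-values measure only the spread between these samples, which may be technical. Replicate numbers did not pair libraries: deviation correlations over 28 pairs of groups were -0.0195 to 0.0431.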

Additional observations from a re-analysis of the deposited data

Results flagged for a closer look

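For 3 of the 8 genes the libraries of 1 name were all higher in CL than in CC while those of another were all lower, without overlap, as 28.8% of all tested genes also were. EGR1 was higher in CL in zdna2 (log2 difference 0.51) and zdna3 (0.55), and lower in CL in zdna1 (-0.25) and zdna4 (-1.73). The limma test that its 4 differences are equal gave an adjusted p of 0.237. IER3 was higher in CL in zdna1 (0.52) and lower in zdna4 (-1.53), with an adjusted p of 0.567 in the same limma test. DUSP1 was higher in CL in zdna4 (0.75) and lower in zdna3 (-0.25), with an adjusted p of 0.815 in the same limma test, and on the deposited scale it was higher in CL in both (1.10 and 0.52). The differences between single pairs of names were not tested by themselves. The zdna4 values rest on 10 reads of EGR1, 8 of IER3 and 3 of DUSP1 in zdna4_CC.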

How the results depend on the processing

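Differences were recomputed under each alternative and without each library in turn, also libraries of names not compared. A difference that did not pass counts as kept where it still did not pass, so the totals that follow do not measure robustness. Of 844 recomputed differences of the 8 genes, 777 kept their direction and side of the threshold, 40 no longer passed, 13 newly passed and 14 reversed. Of 811 of list genes, 702 kept both, 104 no longer passed and 5 reversed. Among these, the reversals on the deposited scale were DUSP1 (-0.34), KLF6 (-0.73), IER3 (-0.91), IER2 (-1.20) and SOD2 (-0.28) in zdna3 over zdna1, GEM (-0.23), KLF6 (-0.27), IER3 (-0.44), IER2 (-0.42) and TNIP1 (-0.50) in zdna3 over zdna2, and NFKBIA (0.42), KLF6 (1.12), IER3 (0.58), IER2 (0.51), CCN1 (0.043), SOD2 (0.12) and TNIP1 (0.39) in zdna4 over zdna3. Leaving out 1 library each, IER2 in zdna3 over zdna1 ran from -0.10 to 0.51 and KLF6 in zdna4 over zdna3 from -0.68 to 0.017. Of the arm differences that were not among these, CL over CC in zdna3 also turned sign on the deposited scale for DUSP1 (0.52), NFKBIA (0.52), IER3 (0.42), GEM (0.33) and KLF6 (0.26), in zdna4 for KLF6 (0.32) and NFATC2 (0.056), and in the average for KLF6 (0.13), EGR1 (0.067) and NFKBIA (0.046), none of them passing. The cause of the difference between scales was not tested.

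The number of the 8 genes past the threshold moved as follows. On the deposited scale it was 1 for the arms of zdna1, 1 for those of zdna3, 1 for the test of equal differences, 2 for zdna3 over zdna2 and 2 for zdna4 over zdna3, and it stayed at 5 in zdna3 over zdna1 with other genes, 2 higher and 3 lower. With a filter of 100 CPM, which EGR1 and DUSP1 alone pass, it was 2 for the test among the names and for each of the 3 pairs that include zdna3, and 0 for zdna2 over zdna1. With DESeq2, which gave no adjusted p for the genes it lost, it was 3 among the names, 3 for zdna3 over zdna1, 2 for zdna3 over zdna2, 2 for zdna4 over zdna3 and 0 for zdna2 over zdna1. Contrasts of 1 arm alone in the fit of all libraries, and TMM factors over all human genes, were added after seeing the data. In CC libraries alone it was 1, 2, 1, 0 and 0 in that order, and in CL libraries alone 2 for zdna4 over zdna1 and 1 for zdna4 over zdna2. Without array weights it was 1 for the arms of zdna4 and 0 for zdna2 over zdna1, and without a filter 2 for zdna4 over zdna3. For the arms of zdna1 it was 1 with a pseudocount of 2 CPM, with edgeR and without both zdna4_CC libraries. Leaving out each library in turn gave 0 to 1 for the arms of zdna1 and for zdna2 over zdna1, 4 to 5 for zdna3 over zdna1 and over zdna2, 3 to 4 for zdna4 over zdna3 and 5 to 6 among the names.

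Over all tested genes, calls numbered 208 in zdna3 over zdna1 (57 to 4417 over the alternatives), 278 in zdna3 over zdna2 (61 to 4258), 220 in zdna4 over zdna3 (28 to 3816), 116 in zdna2 over zdna1 (9 to 210), 32 in zdna4 over zdna1 (1 to 147), 115 in zdna4 over zdna2 (2 to 491) and 410 among the names (63 to 4375). For CL over CC they numbered 35 in zdna1 (9 to 50, the lowest without zdna1_CC replicate 1), 8 in zdna2 (0 to 10), 4 in zdna3 (0 to 1028), 54 in zdna4 (13 to 439), 20 in the average (0 to 1014) and 40 in the test of equal differences (7 to 335). In each name the replicate numbers did not pair the libraries, and the fit with a replicate block left the number of early response genes called at 5, 4 and 4 in zdna3 over zdna1, zdna3 over zdna2 and zdna4 over zdna3 and changed it in no other comparison. The early response genes had 33 reads or fewer per library, which sets wide counting intervals, such as 206 to 437 CPM for EGR1 in zdna3_CC.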
